A study of Homo sapiens with 8 samples.

Results

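The genes described here are FOS, FOSB, FOSL1, FOSL2, JUN, JUNB, JUND and ATF3, which code for subunits of the AP-1 transcription factor. They were chosen by name, as 8 of the 60286 genes of the deposited matrix, and all 8 were measured. The matrix gave RNA counts for each of 43693 cells, taken from neural cultures of the human embryonic stem cell line H1, an established line. Some cultures grew on a flat surface (2-D) and others as organoids (3-D). The series set out to learn which cells the cultures held and how their RNA responded to the drugs cocaine and morphine and to dopamine. Fixed cells were barcoded by splitting and pooling, and 8 sublibraries of that single pool were sequenced. The labels list all treatments together for each sublibrary, so the only record of a cell's culture was a tag in its name.

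There were 46 tags in 9 arrangements. In 2DMono and 3DMono the treatment part of the tag was AcDop, AcMor or Vehic, with 2 tags each, which gave 6 tags per arrangement. In 2DCocu it was AcCoc, AcMor or Vehic, with 4 tags each. The 3DFusi arrangement had 4 AcCoc, 3 AcMor and 3 Vehic tags, since the number 2 was missing from AcMor and Vehic. The other 5 arrangements carried no treatment: 2DProto2Fjo, 2DProto3Wu and 2DProto4Nic had 2 tags each, and 3DProto1For and 3DProto2Xia had 3 each. The names AcCoc, AcMor and AcDop resemble cocaine, morphine and dopamine. No label defines them or gives a dose or time. Every group descends from H1 with no other genetic change named. A tag was taken as a replicate. The labels do not say whether tags are separate cultures, so p-values measure only the spread between tags, which may be technical. The labels name papain for organoids and do not say how 2-D cells were released, so 3-D growth and its handling cannot be told apart in any 3-D against 2-D value.

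AP-1 is a dimer of basic leucine zipper proteins. FOS family proteins bind DNA only in partnership with a JUN family protein, whereas JUN proteins can also pair with each other, and ATF3 is a stress-induced relative that pairs with JUN proteins. FOS, FOSB, JUN, JUNB and ATF3 are immediate early genes, transcribed without new protein synthesis after growth factors, calcium entry, stress or tissue handling. FOSL1 and FOSL2 are slower members that are prominent in adherent, migrating and matrix-producing cells, and JUND is present in many resting cells. In neurons FOS is the classical mark of recent activity.

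The promoters are shown so that the start regions of FOS, FOSB, JUN and JUND, which were called higher in whole 3-D tags of Mono and Fusi-Cocu, can be read beside that of FOSL2, which in whole tags was not. RefSeq (GRCh38.p14) promoter entries matched 7 of the 8 genes, with 2 entries for ATF3, so 8 windows of 250 upstream bases were searched on both strands. The core of the cyclic AMP response element, TGACGT, lay in the windows of FOS, FOSB, FOSL2 and JUND, 4 of 8 windows, against 7.1% of all 35116 promoters. TGACATCA, the variant through which JUN proteins regulate JUN itself, lay in the windows of JUN and ATF3, against 2.37% of all. The full element TGACGTCA lay in that of JUND alone, against 1.65% of all, and the cores within it overlap it. The AP-1 element TGANTCA (6.57% of all) and the CArG box bound by serum response factor (1.16% of all) were in 0 of the 8 windows. A match is a string of letters, not a measured binding site, and bases farther upstream were not searched. Below are the last 120 bases before the annotated start, with the motif in capitals (in JUND its reverse complement ACGTCA); the motif begins 64 bases before the start in FOS, 60 in FOSB, 66 in FOSL2, 67 in JUN and 87 in JUND.
FOS, chr14:75278708-75278827, plus strand: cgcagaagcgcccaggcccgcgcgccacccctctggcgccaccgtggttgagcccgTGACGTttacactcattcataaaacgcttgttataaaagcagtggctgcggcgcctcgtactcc
FOSB, chr19:45467876-45467995, plus strand: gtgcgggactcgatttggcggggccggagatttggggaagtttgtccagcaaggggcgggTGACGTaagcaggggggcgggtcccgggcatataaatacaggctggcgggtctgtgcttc
FOSL2, chr2:28392738-28392857, plus strand: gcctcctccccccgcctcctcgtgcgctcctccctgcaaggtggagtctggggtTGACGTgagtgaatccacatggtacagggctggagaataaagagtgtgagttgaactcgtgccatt
JUN, chr1:58784048-58784167, minus strand: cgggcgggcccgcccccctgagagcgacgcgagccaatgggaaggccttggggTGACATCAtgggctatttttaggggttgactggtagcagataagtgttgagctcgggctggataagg
JUND, chr19:18281623-18281742, minus strand: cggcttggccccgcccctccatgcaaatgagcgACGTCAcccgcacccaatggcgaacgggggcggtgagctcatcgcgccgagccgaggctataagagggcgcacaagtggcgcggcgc

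Tags held 317 to 1959 cells and 3624668 to 58777178 counts, and the median count per cell lay between 7546 and 25853. A level below is in CPM, the count of a gene scaled to the same total in every tag, so a level compares tags for 1 gene and not genes with each other. Where the tags of a gene are said not to overlap, the share of all genes without overlap was not counted. Counts behind a tag's value ran from 63 to 5385 for FOS, but only from 2.21 to 209 for JUNB and from 2 to 217 for FOSL1. The FOS level differed little between sublibraries, at 62.6 to 67.0 CPM. Of the barcodes, 2393 occurred in more than 1 sublibrary (4894 cells), always with the same tag, so none joined tags. Cells called doublets made up 15.1% and were kept. Markers of pluripotent cells, 6 genes, summed to 0.639 to 11.9 CPM over all tags, and those of microglia or macrophages, 8 genes, to 8.05 to 24.97 CPM. The mesenchymal list (COL1A1, COL1A2, COL3A1, DCN, LUM, PDGFRB, TWIST1 and POSTN) summed to 581 to 1663 CPM in 2DMono, 161 to 574 in 3DMono, 483 to 1802 in 2DCocu and 229 to 4374 in 3DFusi, so it moves with several comparisons. Other lists reached higher sums in some organoid tags, although the ranges overlapped: the GABAergic list summed to 34.2 to 87.0 CPM in 2DCocu and 52.0 to 470 in 3DFusi, the muscle list to 30.3 to 50.3 and 33.6 to 2165, and the choroid plexus list to 112 to 213 in 2DMono and 40.1 to 882 in 3DMono. Progenitor-like cells made up 0.227% of 2DMono and 16.6% of 3DMono cells. The progenitor marker list went the other way, at 327 to 542 CPM in 2DMono and 207 to 426 in 3DMono, with overlap. Unnamed clusters held 29.1% of 2DMono, 17.2% of 3DMono, 58.9% of 2DCocu and 29.7% of 3DFusi cells. Fits without the mesenchymal-like cells are given for the 8 genes in the 3-D against 2-D comparisons, their difference and 3DFusi against 3DMono. They are not given for the lists of related genes. The part of the other marker lists was not tested beyond the fits within classes.

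FOS, the partner subunit best known as an activity mark, was low in all flat cultures but one and higher in all organoids. Its lowest, median and highest tags stood at 14.0, 15.9 and 19.0 CPM in 2DMono and at 8.60, 15.5 and 21.3 CPM in 2DCocu. The 3DMono tags ran from 57.6 through 68.2 to 87.2 CPM, and the 3DFusi tags from 90.9 through 122 to 275 CPM. No organoid tag of these arrangements overlapped a flat one. Among the protocol tags FOS was 47.0 and 38.8 CPM in 2DProto2Fjo, 11.8 and 14.5 in 2DProto3Wu, and 12.6 and 14.5 in 2DProto4Nic. The 3-D protocol tags had 162, 149 and 63.3 CPM (3DProto1For) and 51.9, 112 and 78.3 CPM (3DProto2Xia), all above the 6 flat ones. From lowest to highest mean the order was 2DProto3Wu, 2DProto4Nic, 2DCocu, 2DMono, 2DProto2Fjo, 3DMono, 3DProto2Xia, 3DProto1For and 3DFusi. Neighbours in that order overlapped except for 2DMono with 2DProto2Fjo and 2DProto2Fjo with 3DMono.

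FOSL2, a slower FOS family member, was arranged differently. Its 2DMono tags had 40.6 and 81.1 CPM (AcDop), 45.8 and 45.3 (AcMor) and 41.4 and 54.1 (Vehic). The 3DMono tags had 19.0 and 13.1 CPM (AcDop), 9.06 and 9.60 (AcMor) and 7.00 and 9.71 (Vehic), all below the flat ones. The 2DCocu tags (17.7 to 34.7 CPM, median 24.8) and 3DFusi tags (11.8 to 49.9 CPM, median 25.7) overlapped, with the wider range in 3DFusi. By mean, FOSL2 was highest in 2DProto4Nic (41.9 and 77.2 CPM) and lowest in 2DProto3Wu (9.09 and 5.90 CPM), both flat, and all neighbours in its order overlapped.

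**Figure D1:**
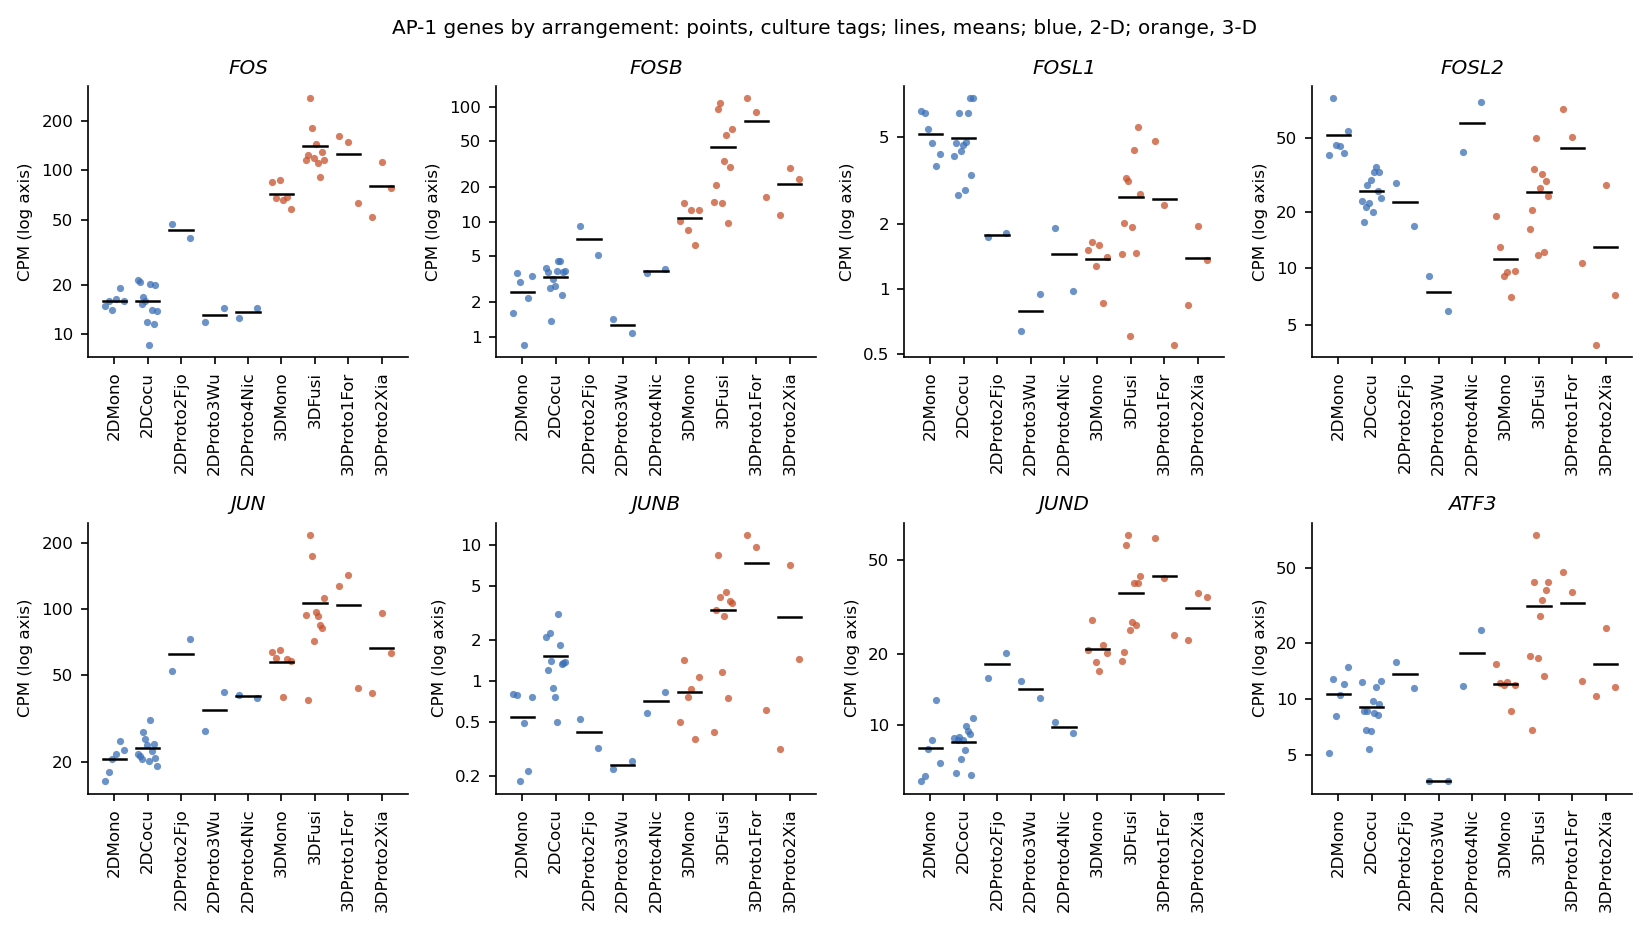
Level of each of the 8 genes (y axis, CPM, log axis) by arrangement, with 1 point per tag, a line at the mean, flat arrangements in blue and organoid arrangements in orange. FOS, FOSB and JUND lie higher in the organoid arrangement of all 3 comparisons without overlap, whereas FOSL2 is low in 3DMono and overlaps between 2DCocu and 3DFusi.

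The comparison of 3DMono with 2DMono asked how the genes differ between organoid and flat culture in the arrangement called Mono. FOS, FOSB, JUN and JUND were higher in 3DMono and FOSL1 and FOSL2 lower, 6 called of 7 tested. A gene was called at a Benjamini-Hochberg adjusted p of 0.05 over all genes tested from the quasi-likelihood test of edgeR, which also fitted treatment, and 38.8% of 20190 genes were called (18% higher, 20.8% lower). These are tag sums, in which fewer cells of a type and less RNA per cell cannot be told apart. FOS averaged 71.8 ± 11.5 CPM (SD, n = 6) against 16.01 ± 1.71 (n = 6), a 3.90-fold difference with adjusted p = 1.48e-07 in edgeR. FOSL2 averaged 11.2 ± 4.28 against 51.4 ± 15.3 CPM, 5.396-fold lower (log2 difference -2.43, SE 0.17, adjusted p = 1.23e-07). FOSL1, known from migrating and transformed cells, ran from 3.69 to 6.61 CPM in 2DMono and from 0.859 to 1.64 in 3DMono, 4.30-fold lower with adjusted p = 5.2e-07. Both slow FOS genes thus lay lower in every 3DMono tag than in any 2DMono tag.

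FOSB, which codes for a FOS relative whose stable splice form builds up in chronically stimulated neurons, lay at 0.852 to 3.60 CPM in 2DMono and at 6.26 to 14.6 in 3DMono (3.72-fold, adjusted p = 0.000123). JUN, the main dimer partner, lay at 16.4 to 24.99 and 39.9 to 65.1 CPM (2.43-fold, adjusted p = 7.11e-06). JUND lay at 5.75 to 12.8 and 16.9 to 27.8 CPM (2.25-fold, adjusted p = 0.000365). The tags of these 3 genes did not overlap between the formats, although JUND no longer passed with only the Vehic tags (log2 difference 0.78, adjusted p = 0.165). ATF3, the stress-induced subunit, overlapped at 5.11 to 14.9 against 8.58 to 15.4 CPM, and its log2 difference of -0.01 had a 95% interval (normal approximation) of -0.44 to 0.42. JUNB, at 0.184 to 0.812 and 0.375 to 1.44 CPM, fell below the count filter and was not tested.

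The comparison of 3DFusi with 2DCocu asked the same of the arrangements called Fusi and Cocu. FOS, FOSB, JUN, JUND and ATF3 were higher in 3DFusi and FOSL1 lower, 6 called of 8 tested, where 49.4% of 20930 genes were called (26.7% higher, 22.7% lower). FOS averaged 141 ± 52.8 CPM (n = 10) against 15.8 ± 4.11 (n = 12), 8.02-fold higher with adjusted p = 9.92e-13. FOSB averaged 44.6 ± 34.6 against 3.34 ± 0.938 CPM, 11.4-fold higher (adjusted p = 4.11e-08). JUN ranged from 38.5 to 218 against 19.2 to 31.2 CPM (4.18-fold, adjusted p = 7.86e-09), and JUND from 18.6 to 64.0 against 6.14 to 10.7 CPM (3.94-fold, adjusted p = 3.76e-09). All tags of these 4 genes lay higher in 3DFusi.

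ATF3 averaged 31.4 ± 20.1 against 9.03 ± 2.23 CPM (3.18-fold, adjusted p = 1.51e-05), but its lowest 3DFusi tag, at 6.82 CPM, lay within the 2DCocu range of 5.38 to 12.5. FOSL1 was lower by a log2 difference of -0.97 (2.65 against 4.96 CPM, adjusted p = 0.00268), again with overlapping tags, and missed the threshold in the Vehic tags alone (adjusted p = 0.0748). FOSL2 did not pass: its log2 difference was -0.14, with an interval of -0.52 to 0.24. JUNB, whose product often restrains JUN activity, averaged 3.35 against 1.52 CPM and missed the threshold (log2 difference 0.90, SE 0.38, adjusted p = 0.0532), although DESeq2 called it (adjusted p = 0.0293).

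The third format comparison set the 6 tags of the 3-D protocols against the 6 of the 2-D protocols, with each arrangement weighted equally. FOS, FOSB, JUNB, JUND and ATF3 were higher in 3-D and none was lower, 5 called of 8 tested, where 24.3% of 25580 genes were called (13.6% higher, 10.7% lower). FOSB, at 118, 89.9 and 16.5 CPM in 3DProto1For and 11.5, 29.2 and 23.4 in 3DProto2Xia, stood above all flat protocol tags, which ran from 1.08 to 9.12 CPM (11.6-fold, adjusted p = 0.000923). FOS differed 4.77-fold (adjusted p = 0.000245) and JUND 2.52-fold (adjusted p = 0.00162), neither with overlap. JUNB had 11.9, 9.64 and 0.610 CPM in 3DProto1For and 0.315, 7.09 and 1.45 in 3DProto2Xia against 0.226 to 0.834 in the flat tags, so its call (log2 difference 3.37, SE 0.75, adjusted p = 0.0116) rested on tags that differed widely from each other. ATF3 passed at 2.19-fold (adjusted p = 0.0331), yet the call ended when any of 8 of the 12 tags was left out. JUN (log2 difference 0.82, SE 0.30, adjusted p = 0.0696), FOSL1 (0.53, SE 0.37) and FOSL2 (0.05, with an interval of -1.01 to 1.11) did not pass.

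**Figure D2:**
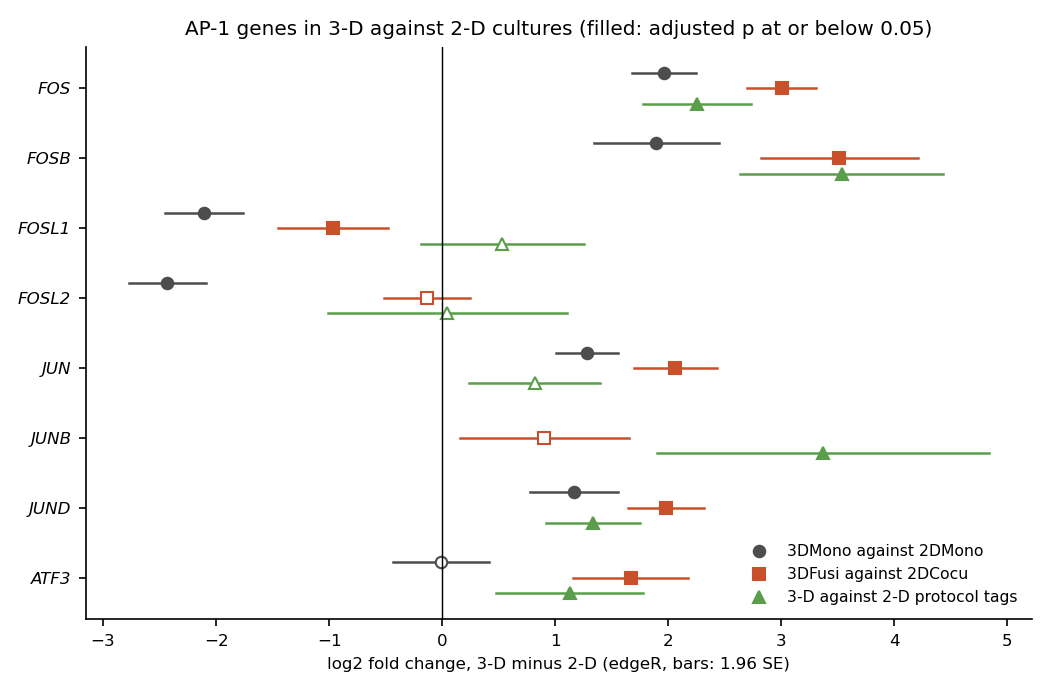
Log2 difference, 3-D minus 2-D, from edgeR (x axis) for each gene in the Mono (circles), Fusi-Cocu (squares) and protocol (triangles) comparisons, with bars for the 95% interval and filled symbols for adjusted p at or below 0.05. FOS, FOSB and JUND are filled and above 0 in all 3, and FOSL2 is filled only in Mono, at -2.43; JUNB was not tested in Mono.

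Whether the Fusi-Cocu difference exceeded the Mono difference was tested in 1 fit over the Vehic and AcMor tags of the 4 arrangements, a test added after the data were seen. Of 8 genes 5 were called, all with a more positive value in Fusi-Cocu, where 9.98% of 23331 genes were called (5.91% in that direction). For FOS, JUN and JUND the excess in 3-D was larger there, ATF3 was called higher there and not in Mono, and FOSL2 was -2.43 in Mono and -0.14, not called, in Fusi-Cocu. The difference of log2 differences was 2.15 for FOSL2 (SE 0.32, adjusted p = 0.000121), 1.704 for ATF3 (SE 0.35, adjusted p = 0.00294), 1.00 for FOS (SE 0.29, adjusted p = 0.0301), 0.96 for JUND (SE 0.26, adjusted p = 0.02) and 0.70 for JUN (SE 0.22, adjusted p = 0.0445). FOSB (1.25, SE 0.57, adjusted p = 0.184), FOSL1 (0.98, adjusted p = 0.262) and JUNB (-0.29, adjusted p = 0.868) were not called. The JUN call ended when any of 17 of the 22 tags was left out, the FOS call for any of 4 tags and the JUND call for 1. With mesenchymal-like cells left out of every tag's sum, where 10.7% of genes were called (6.07% in that direction), FOSL2 (2.12), ATF3 (1.46) and JUND (0.82, adjusted p = 0.0381) passed, and FOS (0.65, adjusted p = 0.2) and JUN (0.38, adjusted p = 0.333) did not.

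Within a format, over the Vehic and AcMor tags, FOS was the 1 gene of 8 called between 3DFusi and 3DMono (log2 difference 0.68, SE 0.14, adjusted p = 0.0399), where 1.56% of 23145 genes were called (1.14% higher). That call ended when any of 7 of the 10 tags was left out. The other 7 genes had positive estimates and were not called: FOSL2 1.27 (SE 0.28, adjusted p = 0.0505), JUND 0.71, ATF3 1.25, FOSB 1.71, JUN 0.61, JUNB 1.803 and FOSL1 1.03 (adjusted p = 0.303). These tests and that of the difference between the comparisons treat the 3DFusi tags as independent, although same-numbered ones deviated together, and no fit with the number as a term was made for them. For Fusi-Cocu, summing the 3DFusi tags by number left the same 6 genes called, with FOS at 3.00 and FOSL1 at -0.98, where 40.3% of genes were called. Between 3DFusi and 3DMono, DESeq2 called 7 of the 8, where it called 6.7% of genes. With the mesenchymal-like cells left out, edgeR called 0 of them there (FOS 0.38, adjusted p = 0.266) and 1.64% of genes. Between 2DCocu and 2DMono, FOSL2 was lower in 2DCocu (log2 difference -0.83, SE 0.14, adjusted p = 0.000263) and JUNB higher (2.21, SE 0.53, adjusted p = 0.00423), 2 called of 8, where 30.3% of genes were called (14.8% higher, 15.5% lower). FOS did not pass there, at -0.27 with an interval of -0.70 to 0.15, nor did ATF3 (-0.42), FOSB (0.50), FOSL1 (0.08), JUN (-0.06) or JUND (-0.22). The JUNB tags of that test ran from 0.184 to 0.764 CPM in 2DMono and from 0.505 to 3.14 in 2DCocu, with overlap. JUNB passed the count filter only through its 2DCocu tags and rests on few counts in 2DMono, so the filter favoured a call in that direction.

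The 3DFusi tags were not alike, and the difference followed the tag number. The 4 tags numbered 1 or 2 held 3.90 to 6.99% mesenchymal-like cells, and the 6 numbered 3 or 4 held 13.9 to 50.4%. Doublet calls also split by number, at 17.6 to 38.2% of cells in the former and 5.56 to 13.6% in the latter. Without the cells called doublets, Fusi-Cocu kept its 6 calls and added JUNB (log2 difference 0.95, adjusted p = 0.0191), where 46.9% of genes were called. FOSB lay at 9.76 to 20.9 CPM in the tags numbered 1 or 2 and 29.7 to 107 in the others, ATF3 at 6.82 to 17.03 and 27.6 to 75.7, FOSL2 at 11.8 to 20.4 and 24.5 to 49.9, and JUND at 18.6 to 26.6 and 27.3 to 64.0. These 4 genes did not overlap between the numbers, and how many of all genes did not was not counted. FOS (90.9 to 125 and 111 to 275 CPM), JUN (38.5 to 94.2 and 82.3 to 218), FOSL1 (0.607 to 2.01 and 1.92 to 5.58) and JUNB (0.425 to 3.35 and 3.04 to 8.39) did overlap.

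Left to the tags numbered 1 and 2, an alternative added after the data were seen, the comparison with 2DCocu called FOSL2 lower (log2 difference -0.78, SE 0.20, adjusted p = 0.00365), where 47.1% of genes were called (23.3% higher, 23.8% lower). These 4 tags are the 3DFusi tags with the lower FOSL2 levels, so the choice of tags bears on the direction and the call is no separate evidence. FOS (2.78), FOSB (2.12), JUN (1.69), JUND (1.46) and ATF3 (0.66, adjusted p = 0.013) passed as higher and FOSL1 as lower (-1.87). With the mesenchymal-like cells left out of all tags instead, the calls were those of the whole sums: FOS 2.48 (adjusted p = 1.5e-12), FOSB 2.30, JUN 1.46, JUND 1.62, ATF3 1.16 and FOSL1 -0.86, against 51.4% of genes called. FOSL2 (-0.40, adjusted p = 0.0694) and JUNB (-0.04, adjusted p = 0.931) did not pass. In Mono the same omission kept all 6 calls, with FOS at 1.86, FOSB at 1.49 and FOSL2 at -2.76 (39.8% of genes called). The class held 2.04% of 2DMono and 4.12% of 3DMono cells, whereas the mesenchymal list summed higher in 2DMono (581 to 1663 against 161 to 574 CPM). How much of that RNA lay in cells outside the class was not counted. In the protocol tags the omission kept the 5 calls and added FOSL1 as higher (1.09, adjusted p = 0.0458), where 23.4% of genes were called.

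Mesenchymal-like cells of organoids held far more FOS RNA per count than the cells around them. In 3DFusi their class sums had 283 ± 80.5 CPM (161 to 428, n = 9 tags with at least 20 such cells), and all other cells 98.1 ± 18.3 CPM (65.8 to 122, n = 10). In 3DMono the values were 175 ± 38.0 (n = 6) and 65.9 ± 10.6 CPM. In flat culture the gap was small or turned: the class had 8.56 ± 7.21 CPM (n = 7) in 2DCocu against 16.3 ± 4.09 in the rest, and 14.4 ± 2.19 CPM (n = 2) in 2DProto4Nic, 35.02% of whose cells belonged to it, against 12.6 ± 0.288 in the rest. FOSL2 behaved otherwise, since it was high in mesenchymal-like cells of both formats: 80.5 ± 28.8 CPM in 2DCocu, 98.2 in 2DProto4Nic, 58.5 ± 17.3 in 3DFusi and 52.9 in 3DMono. FOSL1 stood at 12.2 ± 4.09 CPM in those of 2DCocu and 2.52 in those of 3DFusi. Classes are clusters named by markers, so levels across classes are a description, and the members were not among the genes that formed the clusters. The cluster with the largest part of the class differed: cluster 28 in 2DMono and 2DCocu (60.6% and 88.0%), cluster 26 in 2DProto4Nic (94.5%), cluster 21 in 3DMono (56.4%) and cluster 10 in 3DFusi and 3DProto1For (46.7% and 81.7%).

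**Figure D3:**
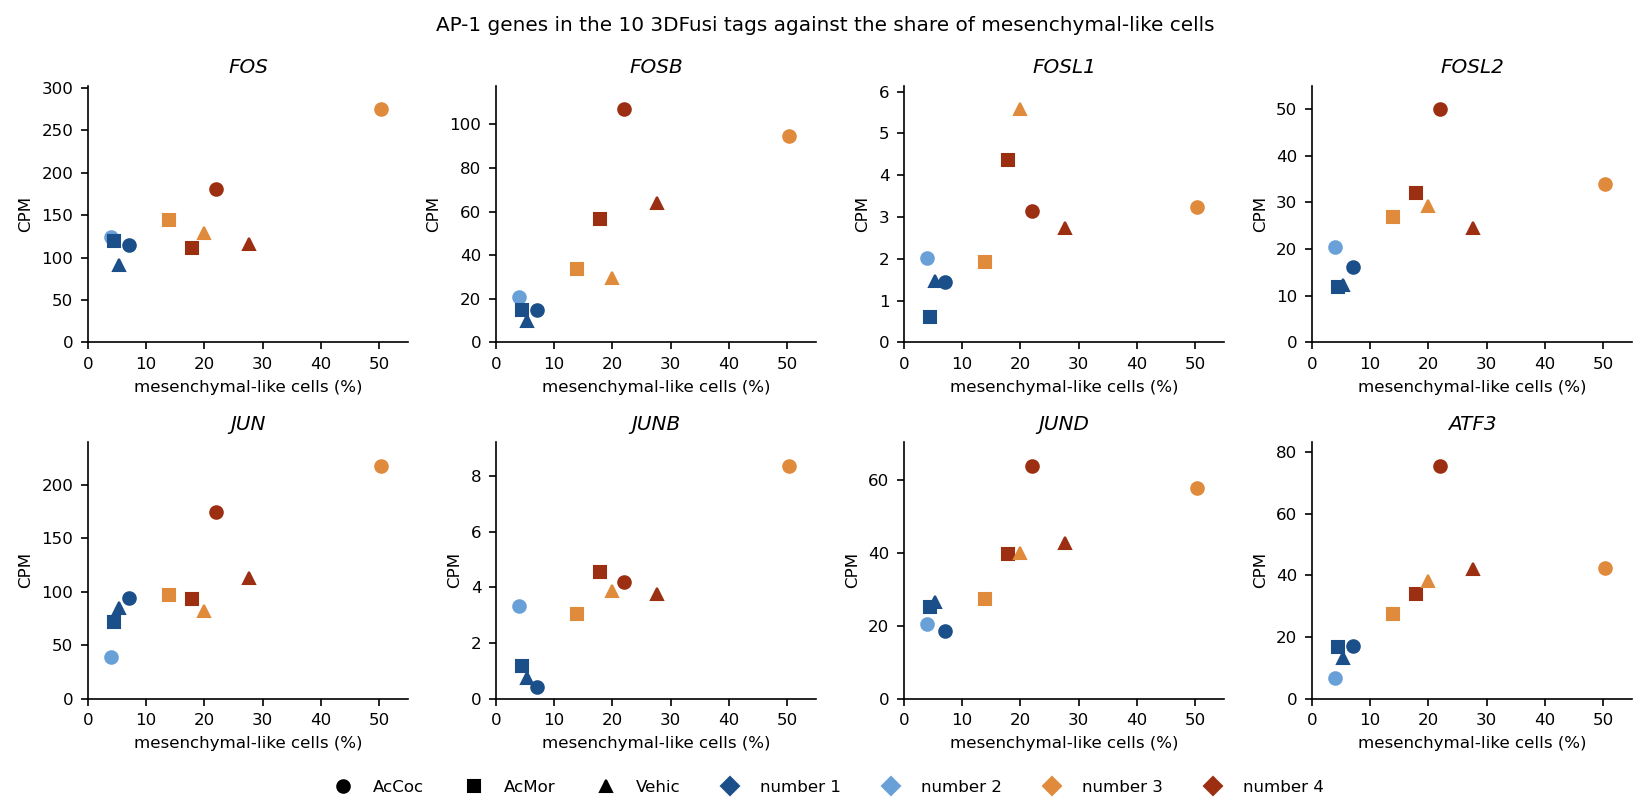
Level of the 8 genes in the 10 3DFusi tags (y axis, CPM, linear) against the percentage of mesenchymal-like cells in the tag (x axis), with shape giving the treatment and colour the tag number. FOSB, ATF3, FOSL2 and JUND are higher in all tags with 13.9% or more such cells than in all tags with 6.99% or fewer.

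In 3DMono and 3DFusi, mean FOS was lower in the neuron-like classes than in cycling, progenitor-like and mesenchymal-like cells. Cycling cells of 3DFusi nevertheless lay below the whole-tag mean of 141 CPM. In 2DMono, GABAergic neuron-like cells had a higher mean than cycling cells. Excitatory neuron-like cells had 7.37 ± 4.31 CPM in 2DMono, 4.53 ± 3.39 in 2DCocu, 22.6 ± 4.51 in 3DMono and 43.9 ± 12.5 in 3DFusi. Cycling cells had 12.8 ± 3.49, 9.91 ± 4.66, 98.6 ± 28.4 and 111 ± 21.3 CPM in the same order. Progenitor-like cells, of which no 2DMono or 2DCocu tag held 20, had 142 ± 36.4 CPM in 3DMono and 211 ± 51.7 in 3DFusi. GABAergic neuron-like cells had 22.2 ± 12.4 CPM in 2DMono, 31.3 ± 10.4 in 3DMono and 46.9 ± 25.6 in 3DFusi, so the formats overlapped there. Ciliated or ependymal-like cells rose from 16.5 ± 9.28 CPM in 2DCocu (n = 5) to 127 ± 36.2 in 3DFusi (n = 8), a change tested below.

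ATF3 was low in neurons of the Mono, Cocu and Fusi arrangements, with means of 1.23 to 5.35 CPM in excitatory neuron-like cells and, in 2DMono, 3DMono and 3DFusi, of 3.53 to 6.74 CPM in GABAergic neuron-like cells. It stood at 77.1 ± 32.1 CPM in mesenchymal-like and 38.7 ± 13.2 in ciliated or ependymal-like cells of 3DFusi. FOSL2 in 2DMono was spread over several classes, with 71.1 ± 45.3 CPM in GABAergic neuron-like, 63.7 ± 15.5 in astrocyte-like (4 tags), 35.8 ± 9.63 in cycling and 78.7 ± 15.1 in unnamed cells, but only 7.08 ± 4.32 in excitatory neuron-like cells. In 3DMono the GABAergic and cycling cells had 7.58 ± 4.49 and 4.57 ± 2.66 CPM.

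**Figure D4:**
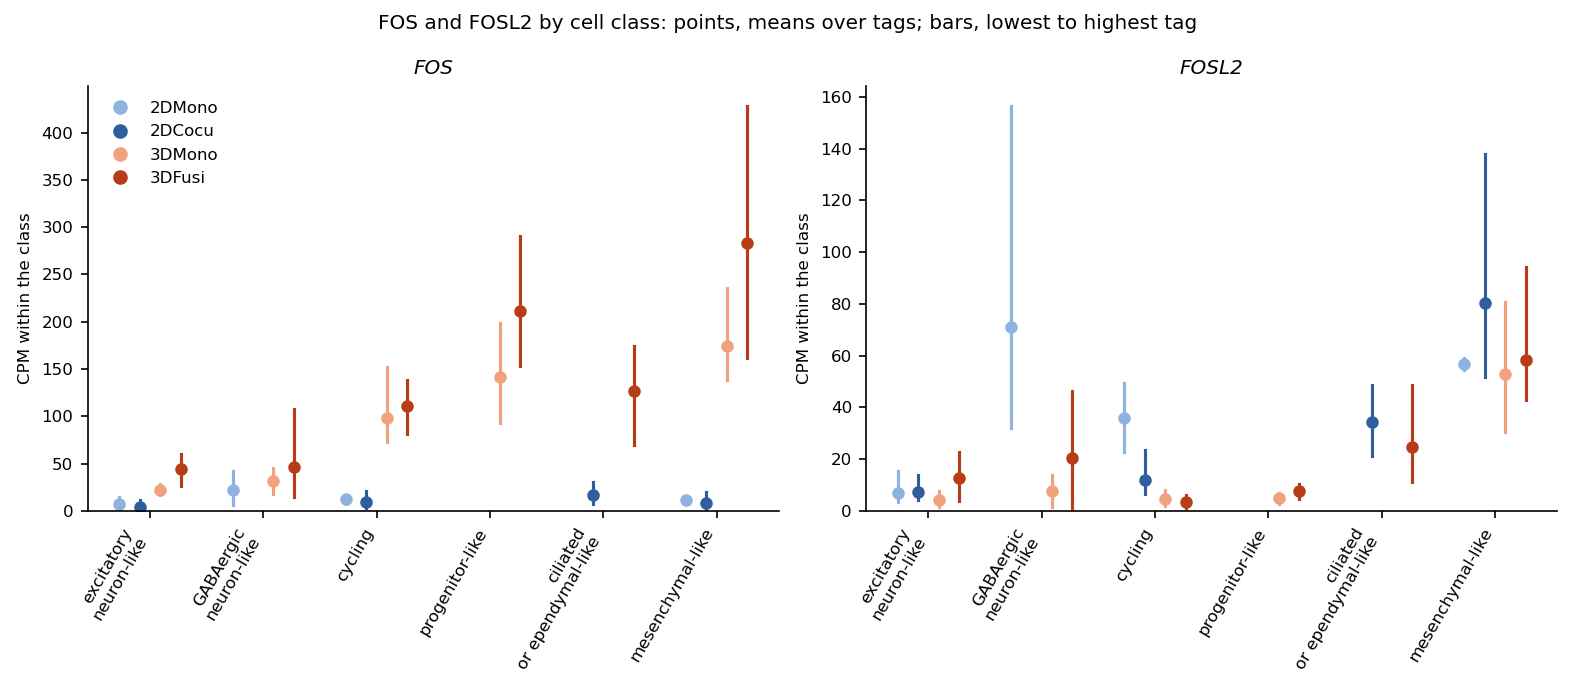
Level of FOS (left) and FOSL2 (right) within cell classes (y axis, CPM of the class, linear) in 2DMono, 2DCocu, 3DMono and 3DFusi, with points at the mean over tags holding at least 20 cells of the class and bars from the lowest to the highest tag. The FOS mean in excitatory neuron-like cells runs from 4.53 CPM in 2DCocu to 43.9 in 3DFusi, and the FOSL2 mean in GABAergic neuron-like cells from 71.1 in 2DMono to 7.58 in 3DMono.

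Format was then tested inside classes, on counts summed per tag and class, where each arrangement had at least 4 tags with 20 cells. Cells of unnamed clusters, 58.9% of 2DCocu and 29.7% of 3DFusi cells, entered none of these fits. The Fusi-Cocu fits within classes treat the 3DFusi tags as independent, although same-numbered ones deviated together, and had no term for the number. In cycling cells the Mono comparison called FOS (log2 difference 2.94), JUN (1.504) and JUND (1.46) higher and FOSL2 lower (-3.16, SE 0.27, adjusted p = 3.43e-08), 4 of 5 genes tested with 34.2% of all genes called. The Fusi-Cocu comparison in cycling cells called the same genes the same way, with FOS at 3.61 (SE 0.16, adjusted p = 1.02e-15) and FOSL2 at -1.505 (adjusted p = 4.83e-05), 4 of 4 tested with 37.6% called. Most cycling cells belonged to cluster 11 in flat cultures and to clusters 18 (3DMono) and 16 (3DFusi) in organoids.

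In excitatory neuron-like cells, Mono called FOS (1.37, SE 0.25, adjusted p = 0.000315) and JUN (0.89) higher and FOSL2 (-0.91, adjusted p = 0.0421) and ATF3 (-0.90, adjusted p = 0.0384) lower, 4 of 5 tested with 31.3% of genes called. Fusi-Cocu called FOS (3.26, SE 0.25, adjusted p = 1.01e-10), JUN (2.23), JUND (1.91) and also FOSL2 (0.78, SE 0.25, adjusted p = 0.0147) higher, 4 of 4 tested with 40.5% called. When 1 of the 12 Mono tags was left out in turn, the FOSL2 call ended in 9 fits (log2 differences of -1.23 to -0.54, adjusted p up to 0.283) and the ATF3 call in 6, while FOS and JUN were called in all 12. The Fusi-Cocu FOSL2 call ended in 1 of 22 such fits, without the 3DFusi AcMor tag numbered 3 (adjusted p = 0.0749). The difference in FOSL2 between the comparisons was not tested in these cells. Flat excitatory neuron-like cells were mostly cluster 0, and cluster 5 held 62.6% of those of 3DMono and 49.0% of those of 3DFusi.

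GABAergic neuron-like cells were the class in which FOS did not pass in Mono: its log2 difference was 0.45 (SE 0.30, adjusted p = 0.315), while FOSL2 was called lower at -3.05 (SE 0.39, adjusted p = 3.79e-05). That was 1 call of 2 tested, with 21.7% of genes called, and the cells were mostly cluster 17 in 2DMono and cluster 2 in 3DMono. In ciliated or ependymal-like cells Fusi-Cocu called FOS (2.56, SE 0.27, adjusted p = 3.09e-06), JUN (1.43), JUND (1.49) and ATF3 (1.27) higher, 4 of 6 tested with 20.8% called. FOSB (1.53, adjusted p = 0.0783) and FOSL2 (-0.94, adjusted p = 0.0607) did not pass, and most of these cells were in cluster 39 in 2DCocu and cluster 7 in 3DFusi. In mesenchymal-like cells FOS was 4.52 higher on the log2 scale (SE 0.34, adjusted p = 7.28e-08), with FOSB (3.30), JUN (2.43), JUND (2.35) and ATF3 (1.97) also higher and FOSL1 (-2.67, SE 0.28, adjusted p = 1.31e-06) and FOSL2 (-0.77, adjusted p = 0.012) lower. That was 7 of 8 tested with 37.1% of genes called, and JUNB (0.21, adjusted p = 0.745) did not pass. The clusters of that class in 2DCocu and 3DFusi, given above, were not the same.

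Clusters draw on different arrangements, so a level pooled over a cluster mixes format with cell type and is a description of the cluster as sampled. Over the 40 clusters the pooled FOS level was highest in cluster 10, mesenchymal-like, at 291 CPM, followed by the mesenchymal-like clusters 37 (245 CPM), whose leading genes include the cartilage genes ACAN and COL2A1, and 21 (233 CPM). It was lowest in cluster 0, excitatory neuron-like cells of flat cultures, at 3.49 CPM. FOSB (163 CPM), JUN (258), JUNB (15.8) and JUND (71.1) were likewise highest in cluster 10, ATF3 in cluster 21 (75.4 CPM), FOSL1 in the unnamed cluster 14 (17.2 CPM) and FOSL2 in cluster 26 (109.9 CPM), the mesenchymal-like cells of 2DProto4Nic. Thus FOS and FOSL2 peaked in mesenchymal-like clusters of different cultures.

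With every cell thinned to 5000 counts, and 42093 cells deep enough, 6.61% of 2DMono, 7.07% of 2DCocu, 22.7% of 3DMono and 36.4% of 3DFusi cells had a FOS count. Without thinning the shares were 18.6%, 14.8%, 37.6% and 56.6%. For FOSL2 the thinned shares were 12.5%, 9.45%, 3.38% and 8.81%. In cluster 0, where FOS was lowest, 1.67% of thinned cells had a FOS count, against 67.4% in cluster 10; both were singled out for their FOS level, so this is a description.

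The genes also met in the same cells. Among thinned 3DFusi cells, JUN was counted in 46.4% of cells with a FOS count and in 20.5% of those without, FOSB in 21.2% against 4.96%, JUND in 22.98% against 11.2%, ATF3 in 15.8% against 5.54% and FOSL2 in 13.6% against 6.07%. In 3DMono JUN was counted in 34.1% against 14.9%, and in 2DMono in 18.5% against 8.22%. FOSL2 in 2DMono was counted in 22.8% of FOS cells and 11.8% of the others. These shares pool cells of several tags and classes and are given without a test.

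Treatment was compared with Vehic within each arrangement, to ask whether the drugs moved these genes. None of the 8 genes was called in any of 8 comparisons, 62 tests in all, with adjusted p of 0.291 or more and log2 differences from -0.78 to 0.96. In counts simulated from these tags, edgeR called 64% of genes raised 2-fold with AcCoc in 2DCocu and 6% in 3DFusi. With AcDop it called 14% in 2DMono and 20% in 3DMono, so a gene not called may still have changed. Over all genes, 6.1% were called for AcCoc in 2DCocu (3.6% higher, 2.5% lower), 0.975% for AcMor in 2DCocu (0.685% higher, 0.29% lower) and 0% in each of the other 6. At an unadjusted p under 0.05, edgeR put 393 genes for AcCoc and 177 for AcMor in 3DFusi, 467 for AcDop and 1247 for AcMor in 2DMono, and 740 for AcDop and 1925 for AcMor in 3DMono.

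FOS in 2DCocu was 21.3, 20.8, 15.2 and 16.8 CPM with AcCoc, 15.9, 11.8, 8.60 and 20.1 with AcMor, and 14.0, 11.5, 19.9 and 13.9 with Vehic. Every treated group overlapped Vehic, and the AcCoc difference of 0.35 (SE 0.24) had an interval of -0.12 to 0.83 and an adjusted p of 0.427 in edgeR. In 3DFusi FOS was 115, 125, 275 and 180.3 CPM with AcCoc, 119.5, 145 and 111 with AcMor, and 90.9, 129 and 116 with Vehic. The AcCoc mean of 174 CPM against 112 with Vehic gave a log2 difference of 0.65 (SE 0.24), not called, and the high values were the AcCoc tags numbered 3 and 4. Same-numbered 3DFusi tags deviated together, and in all 3 same-numbered pairs AcCoc lay above Vehic for FOS, as it did for FOSB, FOSL2, JUN and ATF3 but not for FOSL1, JUNB or JUND. The share of all genes with that order was not counted. FOS, FOSB, JUN and ATF3 also varied together over the groups of arrangement and treatment (Pearson's r of 0.765 to 0.950), so they are not separate cases. With the tag number as a block, edgeR still called 0 of the 8 genes. Mesenchymal-like cells made up 50.4% of AcCoc tag 3 and 20.02% of Vehic tag 3, but 21.9% of AcCoc tag 4 and 27.7% of Vehic tag 4.

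FOS with AcCoc in 3DFusi was 1 of 3 tests in which the unadjusted edgeR value alone fell under the threshold. Among 62 tests, 3 are no more than a threshold of 0.05 lets through by chance. The other 2 were FOSL2 with AcDop in 3DMono (16.04 against 8.36 CPM, log2 difference 0.96, SE 0.29) and FOSL1 with AcDop in 2DMono (6.54 against 3.94 CPM, 0.77, SE 0.31). Both AcDop tags lay above both Vehic tags in each case, an order that a choice by low p favours, so it is no separate evidence. FOSL2 with AcCoc in 2DCocu, at 22.4 against 29.3 CPM, had the lowest adjusted p (0.291). Within classes 174 tests in 33 fits called 0 members, with adjusted p of 0.255 or more in edgeR. Whether a treatment difference depended on format was tested 32 times in 4 interactions, again with 0 members called, values from -0.68 to 1.06 and adjusted p of 0.861 or more, where 0.00425% of genes were called for AcCoc in Fusi-Cocu and 0% in the other 3.

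**Figure D5:**
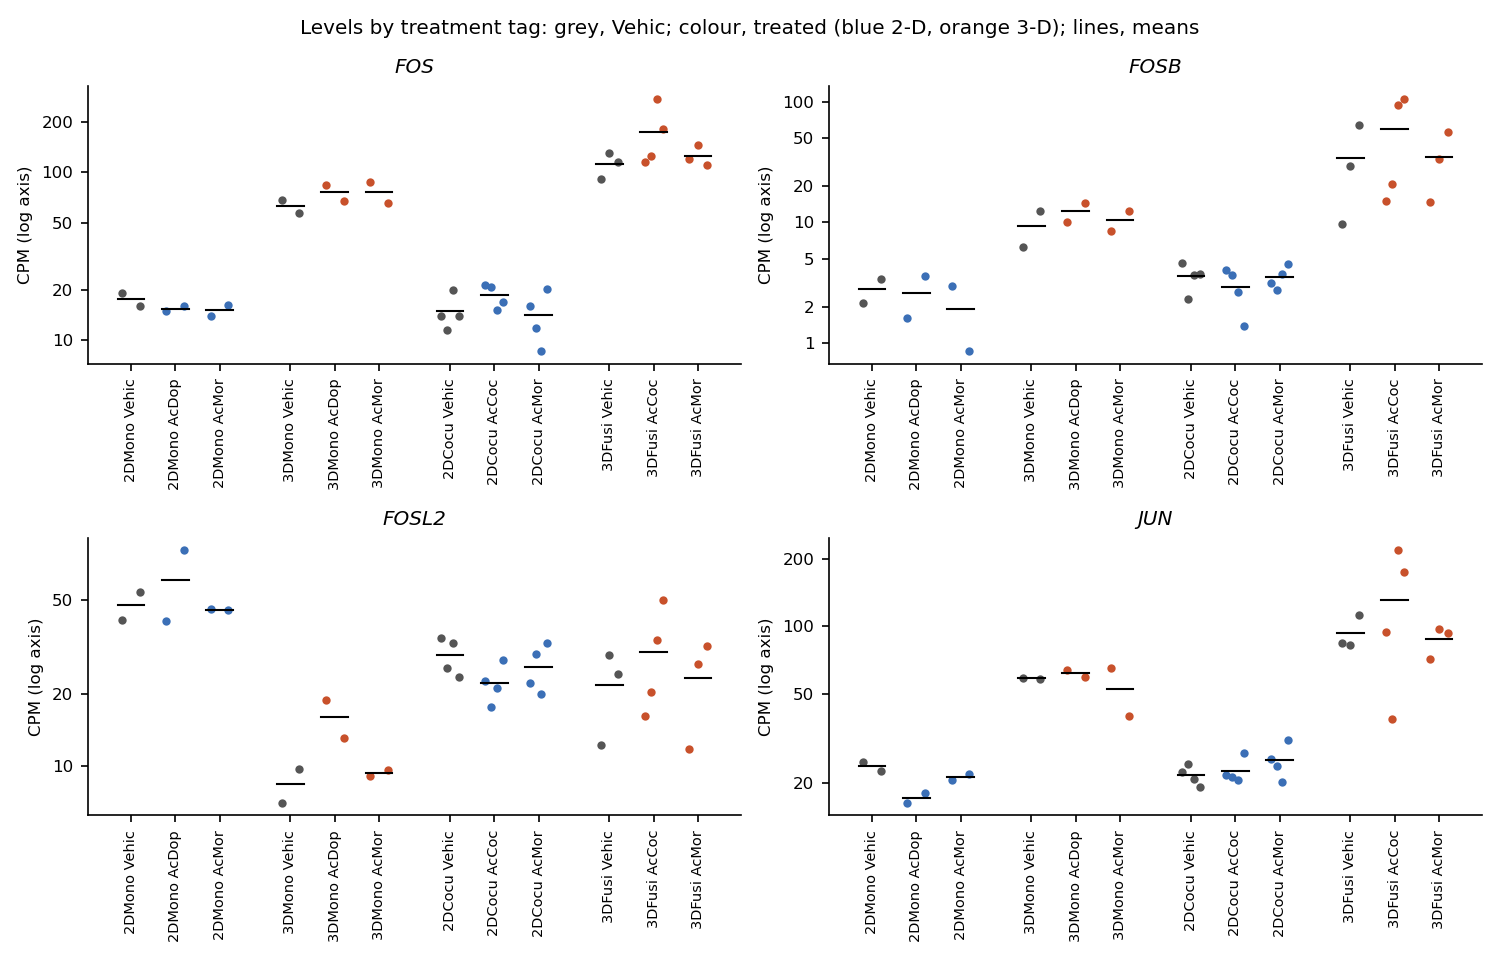
Level of FOS, FOSB, FOSL2 and JUN (y axis, CPM, log axis) in each tag by arrangement and treatment, with Vehic in grey, treated tags in colour and lines at the means. For FOS each treated group overlaps the Vehic group of its arrangement, and the 2 highest values of 3DFusi, 275 and 180.3 CPM, are AcCoc tags.

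Some genes of the related lists were called in 2DCocu. With AcCoc, where 6.1% of all genes were called, these were 2 of 12 bZIP partners, 1 of 26 other immediate early genes, 2 of 17 upstream kinases and serum response factor partners, 1 of 12 heat shock genes, 2 of 9 late activity genes, 0 of 7 phosphatases and 0 of 12 AP-1 targets. With AcMor, where 0.975% of all genes were called, they were 1 of 12 bZIP partners, 1 of 26 immediate early genes and 2 of 9 late activity genes, and 0 of the other lists. With AcCoc, the late activity genes NRN1 (1.33, adjusted p = 0.000704) and CDK5R1 (1.32, adjusted p = 0.00477) were higher, as were SGK1 (0.64), the chaperone gene HSPH1 (0.55) and MAPK8, which codes for the JUN kinase JNK1 (0.35). CREB5 (-0.52) and MAP2K1 (-0.40) were lower. With AcMor, NRN1 (1.02, adjusted p = 0.0109), SGK1 (0.74, adjusted p = 0.0381) and VGF (1.44, SE 0.33, adjusted p = 0.048) were higher. No gene of the lists was called in the other 6 treatment comparisons, where no gene at all was.

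The 7 lists of related genes, chosen with earlier results of these data known, were counted in the same fits. Of 25 other immediate early genes tested in Mono, 4 were higher and 7 lower, with a median log2 difference of 0.10 against 0.03 over all genes, of which 18% were higher and 20.8% lower, so the count called is near that of all genes. In Fusi-Cocu 17 of 26 were higher and 1 lower (median 1.03 against 0.05, with 26.7% and 22.7% of all genes), and in the protocol tags 13 of 27 were higher and 1 lower (median 1.00 against 0.05, with 13.6% and 10.7% of all genes). The most changed in both main comparisons were KLF4 (1.77 in Mono, 2.29 in Fusi-Cocu and 3.26 in the protocol tags), EGR3 (1.5002, 2.03 and 3.22) and EGR1 (1.79, 1.45 and 2.23), transcription factors induced by the same signals as FOS. KLF10 was lower in both main comparisons (-1.13 and -0.58) but 0.63, not called, in the protocol tags. By the test of the difference between the comparisons, 9 of 26 genes were higher in Fusi-Cocu and 0 lower, where 5.91% and 4.06% of all genes were.

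MAP kinase phosphatases, which switch off the kinases that activate AP-1, were higher for 1 of 7 and lower for 3 in Mono (18% and 20.8% of all genes) and higher for 7 of 7 in Fusi-Cocu (26.7% of all genes). By the test of the difference 5 of 7 were called, where 9.98% of all genes were. Between 2DCocu and 2DMono 5 of 7 were lower (median -0.68, with 15.5% of all genes lower). Between 3DFusi and 3DMono 0 of 7 were called (median 0.68, with 1.56% of all genes called). DUSP16 was higher in both Mono and Fusi-Cocu (0.25 and 0.30). Of the upstream kinases and serum response factor partners, 3 of 17 were higher and 4 lower in Mono and 3 higher and 5 lower in Fusi-Cocu, shares near the 38.8% and 49.4% of all genes called. RPS6KA5 (0.69 and 0.43), the kinase MSK1, was higher in both, and MAP2K4 (-0.48 and -0.32) and MRTFA (-0.42 and -0.16) were lower in both. Of 12 other bZIP partners tested, 2 were higher and 2 lower in Mono and 4 higher and 1 lower in Fusi-Cocu, shares below those of all genes called. ATF4 (0.67 and 1.14) and CREB5 (0.79 and 0.73) were higher in both and MAFK (-2.03 and -1.07) lower in both. In the protocol tags ATF4 (-0.11), CREB5 (0.36) and MAFK (-0.10) were not called.

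Of the AP-1 target genes, 8 of 10 tested were lower in Mono and 0 higher, with a median of -2.64, where 20.8% of all genes were lower. In Fusi-Cocu 4 of 11 were lower and 1 higher (median 0.05), and in the protocol tags 2 of 15 were higher and 2 lower, shares near the 49.4% and 24.3% of all genes called. In both main comparisons 3 targets were lower, and 1 was lower in Mono and higher in Fusi-Cocu. Between 3DFusi and 3DMono 4 of 13 targets were higher and 0 lower (median 1.58, with 1.56% of all genes called). The FOS call of that comparison ended with the mesenchymal-like cells left out, and target counts without those cells are not given. By the test of the difference between the comparisons 6 of 12 were higher in Fusi-Cocu and 0 lower (median 1.43, with 9.98% of all genes called). Between 2DCocu and 2DMono 1 of 12 was higher and 4 lower (median -0.29, with 14.8% and 15.5% of all genes). CD44, a surface receptor for hyaluronan, was -5.26 in Mono and -2.53 in Fusi-Cocu but 0.93, called higher, in the protocol tags. PLAU, the urokinase protease, was lower in all 3 (-4.26, -2.12 and -2.18), and the cytokine gene LIF lower in both main comparisons (-2.59 and -1.75). Late activity genes were lower for 5 of 10 and higher for 1 in Mono (20.8% and 18% of all genes), and 4 each way in Fusi-Cocu (22.7% lower and 26.7% higher of all genes). NPTX2 (-1.84 and -0.73), HOMER1 (-1.22 and -0.24) and BDNF (-0.73 and -0.59) were lower in both and CDK5R1 (0.95 and 1.32) higher. In the protocol tags 2 of 10 were higher and 1 lower (13.6% and 10.7% of all genes), with NPTX2 (1.13, adjusted p = 0.00289) and HOMER1 (1.33, adjusted p = 0.00743) called higher there, and BDNF (-0.42) and CDK5R1 (-0.39) not called.

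Heat shock genes known to rise during dissociation are given beside the FOS and JUN calls because handling differed or may have differed between formats. In Mono 1 of 12 was higher and 1 lower (median 0.36), and in the protocol tags 2 were higher (median 0.23), both below the 38.8% and 24.3% of all genes called. In Fusi-Cocu 8 were higher and 1 lower (median 0.91), where 26.7% of all genes were higher and 22.7% lower. DNAJA1 was higher in both main comparisons (1.00 and 1.49) and HSPA5, a chaperone of the endoplasmic reticulum, lower in both (-0.94 and -0.71). Their part in the AP-1 differences was not tested.

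The genes whose levels over the 17 groups of arrangement and treatment were most like a member's were found by Pearson's r of log2(CPM + 1) among 13630 genes with a mean of at least 5 CPM. The groups share libraries and formats, so r is a description. ERCC1 came first for both FOS (r = 0.980) and FOSB (r = 0.980), with FOSB next for FOS (0.950) and KLF4 next for FOSB (0.963). ERCC1 lies beside FOSB on chromosome 19, and in the GENCODE 29 annotation its longest model, on the opposite strand, covers FOSB whole. Whether counting used strand is not stated, so reads of the 2 genes may not be told apart. JUN and JUND were most like each other (0.970), with IER2, another immediate early gene, among the first 3 of each. For ATF3 MYADM led (0.951), and for FOSL2 PDLIM7 (0.919), MSRB3 (0.909) and ADAMTSL4 (0.905). Among members, FOS had r of 0.929 with JUN, 0.941 with JUND and 0.775 with ATF3, but -0.286 with FOSL2. FOSL2 also overlaps the antisense gene FOSL2-AS1, with the same limit on strand.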

How the data were processed

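The deposited matrix held expected counts, which the authors made with Salmon 1.7.0 and alevin on hg38 per the submitters' processing notes, which also name Seurat 4.1.1; the role and settings of each are not given in the labels used. The values were not scaled. All 43693 deposited cells were used. Counts were summed per tag, or per tag and class, rounded to whole numbers, filtered with filterByExpr, scaled by TMM and tested with edgeR 4.0.16 (robust quasi-likelihood) in R 4.3.3, with Benjamini-Hochberg adjustment over all genes tested. DESeq2 1.42.0 was an alternative. A step was first tested on simulated counts.

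Cells were clustered (2000 variable genes without the members and listed genes, 30 components, 20 neighbours, Leiden at resolution 0.8, seed 0) and clusters named from marker lists. A count in a cell was an entry of at least 0.5. The 8 members and the lists were chosen with earlier results of these data known. All members were to be named in every comparison; those of treatments and interactions are given by counts and ranges, with some named. From each list up to 3 genes per direction were named, those with the largest change among those called alike in Mono and Fusi-Cocu. For treatments, only called genes were. Some listed genes that the rule selects are not reported here. The 3 genes most like each member with a mean of at least 5 CPM over tags were found, of which the text gives some.

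Tag numbers were checked as pairs through the correlation of deviations from group means: in 3DFusi same-numbered tags had r of 0.164 to 0.671, over the minimum of 0.1, so numbers pair them; in 2DCocu the median was -0.013, and 2DCocu, 2DMono and 3DMono did not meet the rule.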

Additional observations from a re-analysis of the deposited data

Results flagged for a closer look

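Dixon's test at the 0.829 limit was made for each gene in each group of 4 tags. In 4 of 32 such tests 1 tag stood apart, where chance alone gives about 1 in 20. All 4 were in 2DCocu, and outside 2DCocu only 3DFusi AcCoc held 4 tags. In 2DCocu, JUN was highest in AcCoc tag 4 (27.4 CPM), JUNB was highest in AcMor tag 4 (3.14 CPM) and in Vehic tag 1 (1.83 CPM), and JUND was lowest in AcCoc tag 2 (6.26 CPM).

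The 3-D against 2-D difference itself differed between Fusi-Cocu and Mono for 5 genes, by the edgeR test of the difference: ATF3 by 1.704, FOS by 1.00, FOSL2 by 2.15, JUN by 0.70 and JUND by 0.96 on the log2 scale. The FOS and JUN calls ended with mesenchymal-like cells left out. With 1 of the 22 tags left out, the JUN call ended for any of 17 tags, the FOS call for any of 4 and the JUND call for 1. FOSL2 is the 1 gene of these with a called difference in Mono and none in Fusi-Cocu, and ATF3 the reverse.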

How the results depend on the processing

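With each tag left out in turn, 6 genes were called in Mono each time and 6 to 7 in Fusi-Cocu. In the protocol tags 3 to 6 were called, with 3 only without 2DProto3Wu tag 2. The test of 3DFusi against 3DMono called 0 to 6 genes (6 without 3DFusi AcMor tag 1 or Vehic tag 1, and 0 without any of AcMor 3 and 4, Vehic 3 and 4 of 3DFusi, or AcMor 2, Vehic 1 and Vehic 2 of 3DMono). The difference between the comparisons called 2 to 5, with 2 without 2DMono Vehic tag 1 and 3 without 3DMono AcMor 2, Vehic 1 or Vehic 2. Within classes, Mono called 1 to 2 in GABAergic neuron-like cells (2 without 2DMono AcDop 1 or 3DMono Vehic 1) and 2 to 4 in excitatory neuron-like cells (2 without 2DMono AcDop 2 or AcMor 1, or 3DMono AcDop 2 or Vehic 1).

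Under the other settings, 3DFusi against 3DMono called 7 genes with DESeq2, 3 with RLE factors, 3 with library totals alone, 4 with no filter on low counts, 0 with doublets left out and 0 with mesenchymal-like cells left out. The difference between the comparisons called 3 with no filter and 3 with mesenchymal-like cells left out. Within GABAergic neuron-like cells the Mono comparison called 1 gene, against 6 in whole tags, where only 2 genes could be tested. Shares of cells with a FOS count were 18.6%, 14.8%, 37.6% and 56.6% without thinning in 2DMono, 2DCocu, 3DMono and 3DFusi.

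The sign turned only for differences that had not been called. ATF3 in Mono went to 0.0063 with DESeq2, 0.0019 with RLE factors, 0.18 with library totals and 0.044 with no filter, and ranged from -0.16 to 0.15 over tags left out. JUNB in Fusi-Cocu went to -0.65 without the 3DFusi tags numbered 3 and 4 and to -0.040 without mesenchymal-like cells. FOSL2 in the protocol tags went to -0.0046 with no filter and ranged from -0.52 to 0.27 over tags left out. Between 2DCocu and 2DMono, JUN went to 0.055 with library totals, and the ranges over tags left out were -0.14 to 0.13 for JUN, -0.30 to 0.14 for JUND and -0.040 to 0.27 for FOSL1. JUNB in the difference between the comparisons ranged from -0.57 to 0.060. The cause was not tested. Library totals alone moved the median log2 difference of all genes in Mono from 0.03 to 0.22. These totals, the tags numbered 3 and 4 left out, the mesenchymal-like cells left out, and all alternatives for tests within a format, of interactions and of the difference between comparisons were chosen after the data were seen.

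With the replicate block, the tag number as a term, 0 members were called in each of the 8 treatment comparisons, as without it. In 3DFusi, where the numbers pair the tags, 5 of 10 tags correlated best with their own number, and in 3DMono, where the lowest same-number r was 0.07, 6 of 6 did. JUNB and FOSL1 rest on the fewest counts, down to 2.21 and 2 in a tag.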
